A study of Mus musculus with 6 samples.

Results

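ATF4 is the transcription factor at the centre of the integrated stress response, and 34 of its response genes are described here in irradiated mouse tumors. They were taken from the 21899 genes of the expression table by their symbols and split by role into 15 stress regulators and stress targets, 12 enzymes of amino acid and one-carbon synthesis, and 7 amino acid transporters. Of the 34, 30 reached 1 FPKM on average over the 6 tumors and were tested (FPKM, the fragments per kilobase of exon scaled to the depth of the library, allows levels of different genes to be compared), namely 13 regulators, 11 synthesis enzymes and 6 transporters. At an unadjusted p under 0.05, 15 of these 30 genes were higher after selenium-enriched phycocyanin and laser than after laser alone (4.9% of all genes tested) and none was lower, and 23 were higher than after plain phycocyanin and laser (9.91% of all genes tested). None of the 30 had an adjusted p under 0.05 in limma on all 6 samples, the smallest being 0.376 and 0.0649 in these comparisons.

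The tumors grew from Lewis lung carcinoma cells carrying luciferase (LLC-luc, a mouse lung cancer cell line) under the skin of male C57BL/6 mice, so that whole tumor tissue with its host cells was sequenced. The 6 samples fell into 3 groups of 2. Laser received irradiation with no photosensitizer, saline being given in its place according to the study's methods. PC-La received phycocyanin, a blue pigment protein of the cyanobacterium Spirulina that acts as a natural photosensitizer, and then laser. SePC-La received phycocyanin purified from selenium-enriched Spirulina, and then laser. The labels give a 620 nm laser for 10 min in all 3 groups. For PC-La and SePC-La they add a start 4 h after each injection and injections every 5 days, and for Laser they give no such times. The methods of the study give another wavelength and another interval. All 3 groups were irradiated, so no comparison here is with an untreated tumor. The comparisons ask how tumors given each photosensitizer differed from tumors given laser alone, and how they differed from each other. The study measured less zinc, chromium and manganese in the selenium-enriched protein than in the plain one. The comparison between them therefore cannot set selenium apart from other differences of the preparations. Nothing in the labels says that the samples of a group came from separate animals, and the p-values measure only the spread between these samples.

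In the integrated stress response, kinases that sense amino acid shortage, misfolded protein, heme shortage or viral RNA phosphorylate the translation factor eIF2. Most protein synthesis then slows, while the Atf4 messenger RNA is translated more. ATF4 pairs with C/EBP family proteins and turns on genes for amino acid uptake, amino acid synthesis and tRNA charging, together with regulators such as CHOP (Ddit3) that can lead to cell death when stress persists. Much of ATF4 control acts on translation, which these RNA levels do not measure.

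The sequence element through which ATF4 and C/EBP act together is known as the composite element, or amino acid response element. It was searched as TGATGNAA on both strands of RefSeq promoter windows (GRCm38.p6, from 250 bases before to 50 after each start), and capitals below mark its letters. Of the 34 genes, 29 had a window under their symbol. The element was present for 8 of the 29 genes (27.6%), against 4.51% of all 26994 genes in the promoter table. As the genes were listed for their response to ATF4, this share describes the list and not these tumors. Each stretch below is printed from 5′ to 3′ on the strand where the element reads in this direction, with 10 bases on either side, to show how alike the 8 matches are.

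Atf3: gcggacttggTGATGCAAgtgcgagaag
Trib3: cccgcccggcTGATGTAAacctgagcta
Chac1: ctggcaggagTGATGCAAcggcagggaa
Nupr1: aagccctgtcTGATGCAAtctggccctt
Vldlr: ctaggagcgcTGATGCAActattgctgc
Asns: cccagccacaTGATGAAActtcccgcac
Pycr1: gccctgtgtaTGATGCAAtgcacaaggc
Slc1a4: aggctggagaTGATGCAAcgcaggaggc

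These stretches lie at chr1:191183426-191183453 (Atf3), chr2:152344029-152344056 (Trib3), chr2:119351039-119351066 (Chac1), chr7:126625563-126625590 (Nupr1), chr19:27216810-27216837 (Vldlr), chr6:7693215-7693242 (Asns), chr11:120643834-120643861 (Pycr1) and chr11:20332700-20332727 (Slc1a4). In the direction of the gene, the match began 110 bases before the start in Atf3 and in Nupr1, 193 before in Chac1, 200 before in Vldlr, 23 before in Asns, 103 before in Pycr1 and 4 before in Slc1a4, and at base 15 of the transcript in Trib3. The ATF/CREB site TGACGTCA, a palindrome searched in the same windows, was present for 1 of the 29 genes (3.45%, against 2.03% of all genes). This was Ppp1r15a, where it began 12 bases before the start within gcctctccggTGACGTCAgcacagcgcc (chr7:45526263-45526290). A match describes letters in this window and is not a measured binding site.

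The 250 bases before the start are shown for a stress target and a synthesis enzyme, the glutathione-degrading enzyme Chac1 (chr2:119350992-119351241, plus strand, with the element read on the opposite strand) and asparagine synthetase (Asns, chr6:7693210-7693459, minus strand).

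Chac1: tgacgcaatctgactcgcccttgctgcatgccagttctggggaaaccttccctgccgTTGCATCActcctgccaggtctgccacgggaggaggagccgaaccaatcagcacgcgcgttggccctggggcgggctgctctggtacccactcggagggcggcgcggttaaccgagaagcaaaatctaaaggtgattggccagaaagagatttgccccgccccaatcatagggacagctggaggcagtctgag
Asns: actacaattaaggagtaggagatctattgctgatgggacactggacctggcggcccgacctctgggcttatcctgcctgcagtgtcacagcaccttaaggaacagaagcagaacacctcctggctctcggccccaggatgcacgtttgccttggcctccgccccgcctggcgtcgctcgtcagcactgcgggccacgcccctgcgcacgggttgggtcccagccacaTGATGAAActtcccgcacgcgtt

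The deposited values correspond to between 14447792 and 17649489 reads per sample, and 16808 of the 21899 genes were above 0 in at least 1 sample. The replicates of Laser were the least alike, with a Pearson correlation of log2 values across genes of 0.946, against 0.972 for SePC-La and 0.992 for PC-La (genes are not independent replicates). Laser replicate 2 stood apart, and its summed skeletal muscle markers (6 genes) reached 141 FPKM. The same sum was 20.1 FPKM in Laser replicate 1 and 1.52 to 6.08 FPKM in the PC-La and SePC-La samples. At an unadjusted p under 0.05, 5 of the 6 muscle genes were lower than in Laser both in SePC-La (7.24% of all genes tested) and in PC-La (2.4%). The 4 general epithelial markers summed to 188 to 276 FPKM, nearly all of it from the keratins Krt8 and Krt18 (means of 96.4 and 137 FPKM). The other general markers, Cdh1 and Epcam, averaged 0.617 and 0.0783 FPKM. The lung-specific markers Nkx2-1 and Scgb1a1 were listed at 0 in all 6 samples, and the 5 lung epithelial markers together stayed between 0 and 0.527 FPKM. The label names lung cancer tissue, and the defining markers of lung epithelium were thus absent or near 0. Of the 4 keratinocyte markers, Krt14, Krt1 and Krt5 were at 0 in every sample. Since tumors were sequenced whole, fewer cells of a type and less RNA per cell cannot be told apart.

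Over the 30 tested genes the summed level was 817 and 962 FPKM in Laser, 662 and 802 FPKM in PC-La, and 1524 and 1208 FPKM in SePC-La. Both SePC-La samples were above the other 4 samples in 19 of the 30 genes (11.5% of the 10853 genes tested had this order). Both PC-La samples were below the other 4 in 11 of the 30 (12.6% of all genes tested). In 8 genes every PC-La sample was below every Laser sample, and every Laser sample below every SePC-La sample (4.05% of all genes tested). These 8 were the regulators Adm2, Chac1 and Ppp1r15a, the enzymes Shmt2, Phgdh and Gpt2, and the transporter subunits Slc3a2 and Slc7a5.

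**Figure D1:**
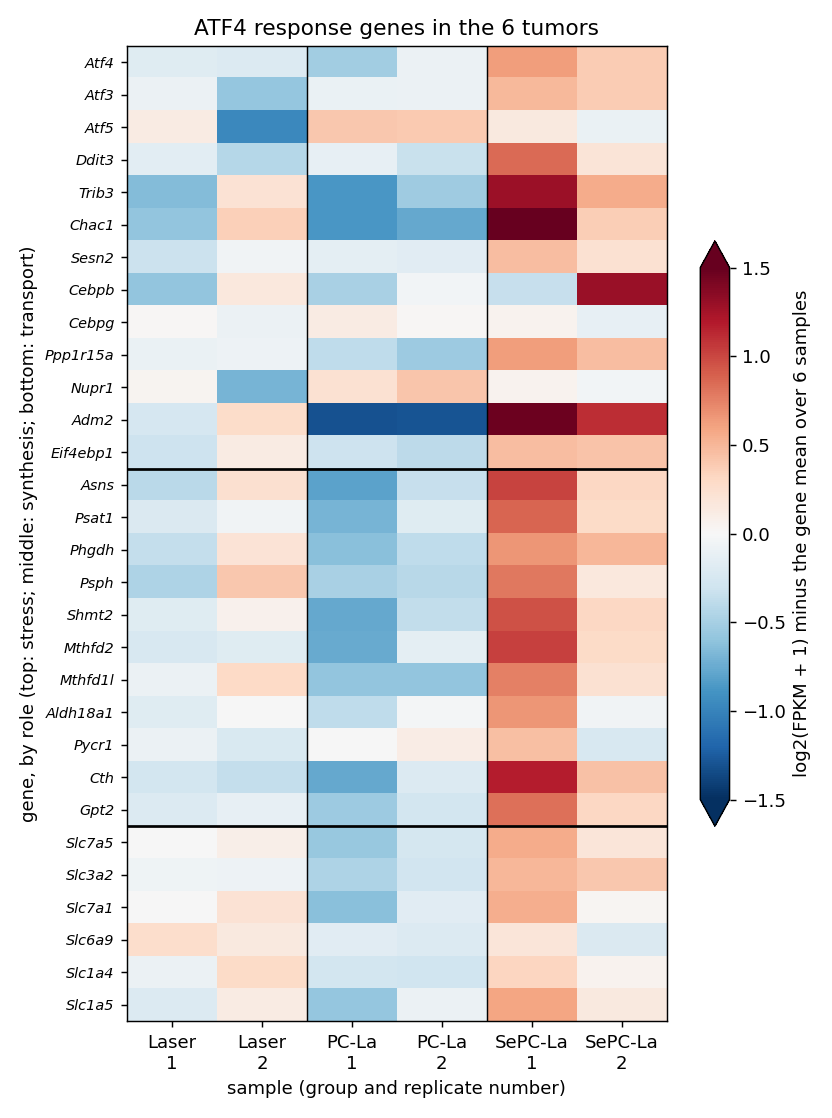
Level of the 30 tested genes (rows, by role) in the 6 tumors (columns), as log2(FPKM + 1) minus the mean of the gene over the 6 samples, with colors saturating at 1.5 in either direction. SePC-La replicate 1 held the highest value of 25 of the 30 genes and PC-La replicate 1 the lowest of 18.

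The tumor with the highest levels was SePC-La replicate 1, which held the highest of the 6 values in 25 of the 30 genes (16.9% of all genes tested) and was above SePC-La replicate 2 in 29 of the 30. The exception was Cebpb. Among the 11 synthesis enzymes, SePC-La replicate 1 was the highest sample in all 11 and PC-La replicate 1 the lowest in 10. Over all genes tested, SePC-La replicate 1 was above replicate 2 in 44.4%.

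SePC-La was first compared with Laser by limma on log2(FPKM + 1) over the 10853 genes that averaged 1 FPKM or more, all 6 samples sharing 1 estimate of the spread. A difference is given below as the log2 fold change of FPKM + 1 with its standard error, a scale that understates changes of low genes. In the accounts of single genes, a gene is called higher, lower or passing at an unadjusted p under 0.05, and the p-value printed is the Benjamini-Hochberg adjusted one over all genes tested, which was above 0.05 for every member with all 6 samples in the fit, apart from 1 after quantile normalization (SePC-La against PC-La). At an unadjusted p under 0.05, 15 of the 30 genes were higher in SePC-La (4.9% of all genes tested) and 0 were lower (7.24% of all genes tested). They were 8 of 13 regulators, 6 of 11 synthesis enzymes and 1 of 6 transporters. The median difference was 0.59 over the 30 genes, 0.70 for regulators, 0.69 for synthesis and 0.26 for transport, against -0.07 for all genes tested. The criterion of the study, an absolute log2 fold change over 1 with an unadjusted p under 0.05, was met by Trib3, Adm2 and Cth, all higher (0.544% of all genes tested). In 19 genes the groups did not overlap with SePC-La higher (15.0% of all genes tested), and in 0 with SePC-La lower (25.6% of all genes tested). The smallest adjusted p of the 30 genes was 0.376, and with all 6 samples neither limma nor its voom version on recovered reads gave any gene tested an adjusted p under 0.05 in this comparison. Without Laser replicate 1, 97 of all genes tested had one, among them Atf3 alone of the 30 (adjusted p = 0.0486), and without SePC-La replicate 2 the count was 1, no gene of the 30. The count of 15 became 8 without SePC-La replicate 1 (3.59% of all genes tested), 7 of them among the 15, with 5 of 13 regulators, 2 of 11 synthesis enzymes and 1 of 6 transporters, and the medians fell to 0.42 over the 30 genes, 0.39 for synthesis and 0.05 for transport. Without Laser replicate 1, 2 of 11 synthesis enzymes were higher and their median was 0.42. Of the 15 genes, 7 stayed under 0.05 in every alternative that tested them, namely Adm2, Atf3, Atf4, Cth, Gpt2, Ppp1r15a and Slc3a2.

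PC-La against Laser went the other way for most genes, with 23 of the 30 differences below 0 and 7 above. At an unadjusted p under 0.05, 1 gene was higher in PC-La (3.38% of all genes tested) and 5 were lower (2.4% of all genes tested). The higher gene was Nupr1, and the lower genes were Ppp1r15a, Adm2, Mthfd1l, Slc7a5 and Slc3a2. Adm2 alone met the criterion of the study, with PC-La lower (0.424% of all genes tested). The median difference was -0.30 over the 30 genes, -0.05 for regulators, -0.31 for synthesis and -0.38 for transport, against -0.001 for all genes tested. The groups did not overlap in 4 genes with PC-La higher (20.4% of all genes tested) and in 12 with PC-La lower (21.6% of all genes tested). Leaving out 1 sample moved the overall median to between -0.39 and -0.16 and the synthesis median to between -0.54 and -0.11, the values nearest 0 being those without PC-La replicate 1. Without Laser replicate 2 these medians were -0.16 and -0.20. The smallest adjusted p was 0.419 (Adm2). The count of 5 lower genes became 9 without Laser replicate 1, where 10.4% of all genes tested were lower and 14.4% higher. In that fit 3 of the 30 genes, all regulators, and 312 of all genes tested had an adjusted p under 0.05, the smallest of the 30 being that of Atf5 (0.0258), which was higher in PC-La. The lower genes numbered 1 without Laser replicate 2 (1.8% of all genes tested), 1 without PC-La replicate 1 (0.663%) and 3 without PC-La replicate 2 (0.885%), and only Adm2 stayed under 0.05 in every alternative that tested it.

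Of the 3 comparisons, the one between the photosensitizers gave the most calls and the largest median. At an unadjusted p under 0.05, 23 of the 30 genes were higher in SePC-La than in PC-La (9.91% of all genes tested) and 0 were lower (14.4% of all genes tested). They were 9 of 13 regulators, 9 of 11 synthesis enzymes and 5 of 6 transporters. The median difference was 0.80 over the 30 genes, 0.75 for regulators, 1.08 for synthesis and 0.69 for transport, against -0.07 for all genes tested. The criterion of the study was met by 11 genes, all higher (1.18% of all genes tested), namely the regulators Trib3, Chac1, Ppp1r15a and Adm2 and the enzymes Asns, Psat1, Phgdh, Shmt2, Mthfd2, Mthfd1l and Cth. The groups did not overlap in 23 genes with SePC-La higher (26.0% of all genes tested) and in 2 with SePC-La lower (39.5% of all genes tested), which were Atf5 and Nupr1. This comparison and the one with Laser share the SePC-La samples.

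The smallest adjusted p between SePC-La and PC-La was 0.0649 (Adm2), and limma gave 0 of all genes tested an adjusted p under 0.05, as did voom. After quantile normalization 8 of all genes tested had one, 1 of them among the 30 genes (adjusted p = 0.0395), and at a minimum mean of 5 FPKM 3 did, none of them a member. A fit on only the 4 samples of these groups gave 7 of the 30 genes an adjusted p under 0.05 (5.87% of all genes tested), Adm2 at 0.0108, Phgdh at 0.0291, Ppp1r15a at 0.0305, Eif4ebp1 at 0.0306, Slc3a2 at 0.0342, Trib3 at 0.0419 and Mthfd1l at 0.0446. Leaving out 1 Laser sample takes the spread from the same 4 samples, so such fits are no separate check of this comparison. Without SePC-La replicate 1, 17 of the 30 genes were higher (5.23% of all genes tested), 16 of them among the 23, with 7 of 13 regulators, 8 of 11 synthesis enzymes and 2 of 6 transporters, and the medians of synthesis and transport were 0.74 and 0.45. Without PC-La replicate 1, 16 of the 30 were higher (3.59% of all genes tested), with 7 regulators, 7 synthesis enzymes and 2 transporters. Of the 23 genes, 15 stayed under 0.05 in every alternative that tested them. The count of 11 genes past the criterion of the study became 5 without SePC-La replicate 1 and 7 without PC-La replicate 1. Rescaling the samples by the median ratio changed the split over all genes from 1075 higher and 1562 lower to 1392 and 1204 in this comparison, and from 532 higher and 786 lower to 771 and 510 for SePC-La against Laser. Under this scaling the counts stayed at 23 and 15. After quantile normalization they were 23 (11.5% of all genes tested) and 11 (5.02%), the latter with 3 of 11 synthesis enzymes.

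**Figure D2:**
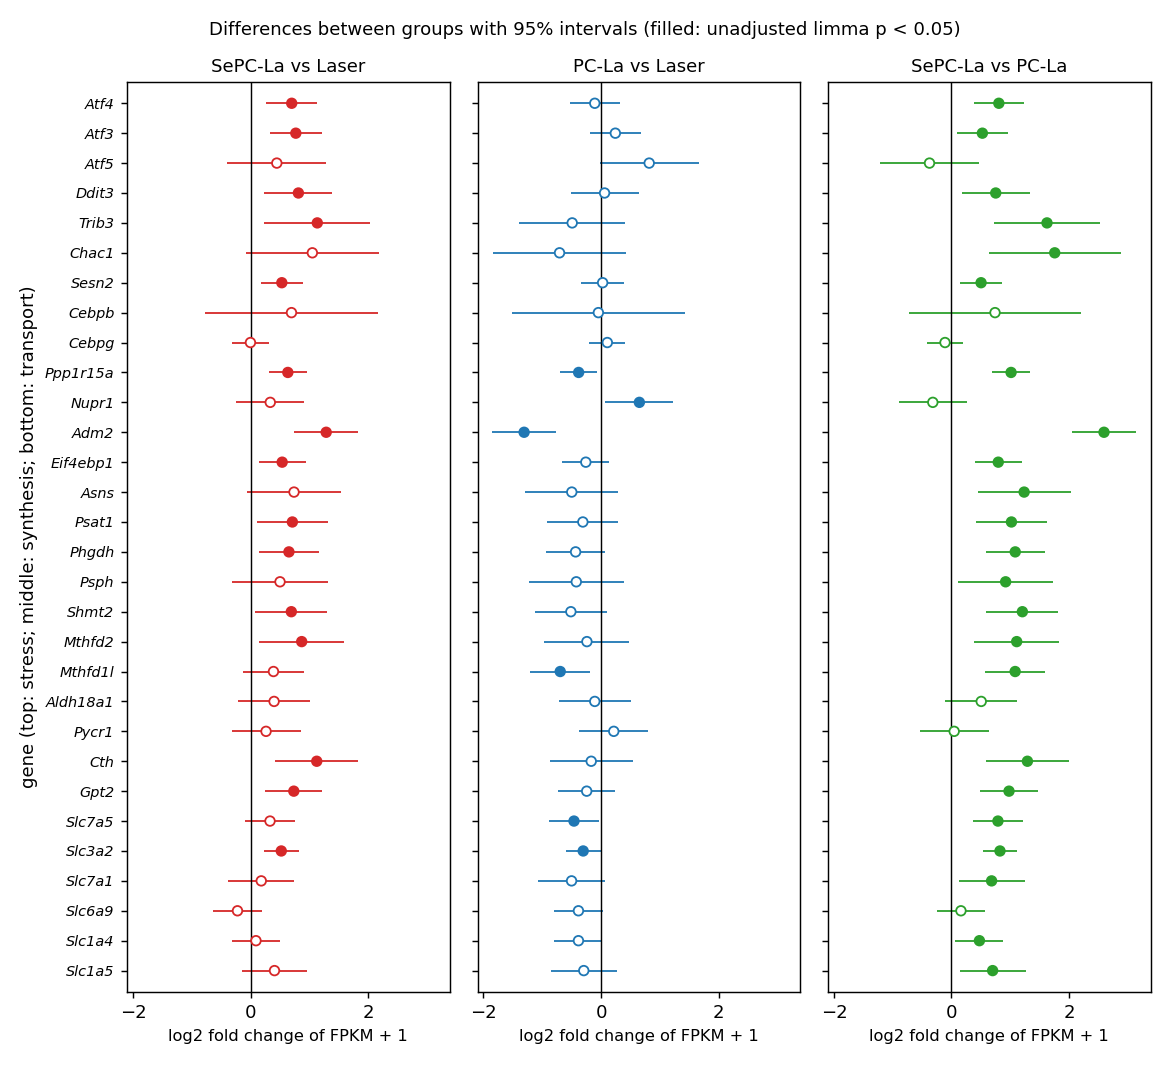
Log2 fold change of FPKM + 1 for the 30 tested genes in the 3 comparisons, with 95% intervals from limma (filled points, unadjusted p under 0.05). In SePC-La against PC-La 23 points are filled on the right of 0 and none on the left, while in PC-La against Laser 23 of the 30 points lie below 0.

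Among the regulators, Atf4 itself, on the plus strand of chromosome 15 (GRCm38, 80255184 to 80257541), stood at 114 and 112 FPKM in Laser, 90.2 and 122 FPKM in PC-La, and 200.5 and 170 FPKM in SePC-La. Both SePC-La samples were above the other 4, while Laser and PC-La overlapped. The difference to Laser was 0.70 ± 0.18 (SE, limma, adjusted p = 0.376) and that to PC-La was 0.81 ± 0.18 (adjusted p = 0.126). PC-La and Laser differed by -0.11 ± 0.18 (adjusted p = 0.868, 95% interval -0.54 to 0.32).

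Adm2, which encodes the secreted peptide adrenomedullin 2 and lies on chromosome 15 (89322720 to 89324731, plus strand), separated the 3 groups most widely. Its level was 2.21 and 3.62 FPKM in Laser, 0.542 and 0.566 FPKM in PC-La, and 9.65 and 7.28 FPKM in SePC-La. These values rest on 45 and 83 reads in Laser, 11 reads in each PC-La sample, and 181 and 165 reads in SePC-La. No 2 groups overlapped. The mean of SePC-La was 15.3 times that of PC-La and 2.91 times that of Laser. On the fitted scale the differences were 2.60 ± 0.22 (adjusted p = 0.0649) to PC-La and 1.29 ± 0.22 (adjusted p = 0.376) to Laser, while PC-La against Laser was -1.31 ± 0.22 (adjusted p = 0.419).

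Trib3, a pseudokinase that is induced by ATF4 and restrains it, stood at 7.01 and 13.6 FPKM in Laser, 5.84 and 7.64 FPKM in PC-La, and 29.6 and 17.4 FPKM in SePC-La. Both SePC-La samples were above the other 4, and SePC-La replicate 1 was the highest. The difference was 1.14 ± 0.36 (adjusted p = 0.382) to Laser and 1.63 ± 0.36 (adjusted p = 0.126) to PC-La. Chac1, which breaks down glutathione, stood at 1.79 and 4.40 FPKM in Laser, 1.29 and 1.47 FPKM in PC-La, and 10.9 and 4.44 FPKM in SePC-La. Laser replicate 2 and SePC-La replicate 2 were nearly level, at 127 reads each. The difference of SePC-La to PC-La was 1.76 ± 0.45 (adjusted p = 0.134), whereas the difference to Laser, 1.05 ± 0.45, missed the threshold (adjusted p = 0.425).

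Ddit3, the death-associated factor CHOP, stood at 6.31 and 5.06 FPKM in Laser, 6.46 and 5.46 FPKM in PC-La, and 13.7 and 8.29 FPKM in SePC-La. Laser and PC-La overlapped, and the difference of SePC-La was 0.81 ± 0.24 (adjusted p = 0.376) to Laser and 0.75 ± 0.24 (adjusted p = 0.152) to PC-La. Another Ddit3 model in the table, of which all 105 bases lie within the first, was listed at 0 in every sample. Atf3, a stress-induced repressor of the same family, stood at 10.7 and 7.29 FPKM in Laser, 10.5 and 10.7 FPKM in PC-La, and 16.4 and 15.2 FPKM in SePC-La. Both SePC-La samples exceeded the other 4, by 0.77 ± 0.18 against Laser (adjusted p = 0.376) and 0.53 ± 0.18 against PC-La (adjusted p = 0.165).

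Regulators that feed back on translation and growth rose as well. Ppp1r15a, the phosphatase subunit GADD34 that removes the phosphate from eIF2, stood at 9.49 and 9.68 FPKM in Laser, 7.63 and 6.67 FPKM in PC-La, and 16.4 and 14.5 FPKM in SePC-La. The 3 groups did not overlap. SePC-La was higher than Laser by 0.63 ± 0.13 (adjusted p = 0.376) and than PC-La by 1.01 ± 0.13 (adjusted p = 0.0868), and PC-La was lower than Laser (-0.38 ± 0.13, adjusted p = 0.753). Eif4ebp1, the repressor of cap-dependent translation, stood at 58.6 and 79.6 FPKM in Laser, 58.7 and 55.2 FPKM in PC-La, and 100.5 and 98.6 FPKM in SePC-La. SePC-La exceeded Laser by 0.54 ± 0.17 (adjusted p = 0.376) and PC-La by 0.80 ± 0.17 (adjusted p = 0.126). Sesn2, an inhibitor of the growth kinase mTORC1, stood at 8.06 and 9.86 FPKM in Laser, 9.21 and 9.02 FPKM in PC-La, and 14.5 and 12.3 FPKM in SePC-La. SePC-La exceeded Laser by 0.53 ± 0.15 (adjusted p = 0.376) and PC-La by 0.50 ± 0.15 (adjusted p = 0.143).

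**Figure D3:**
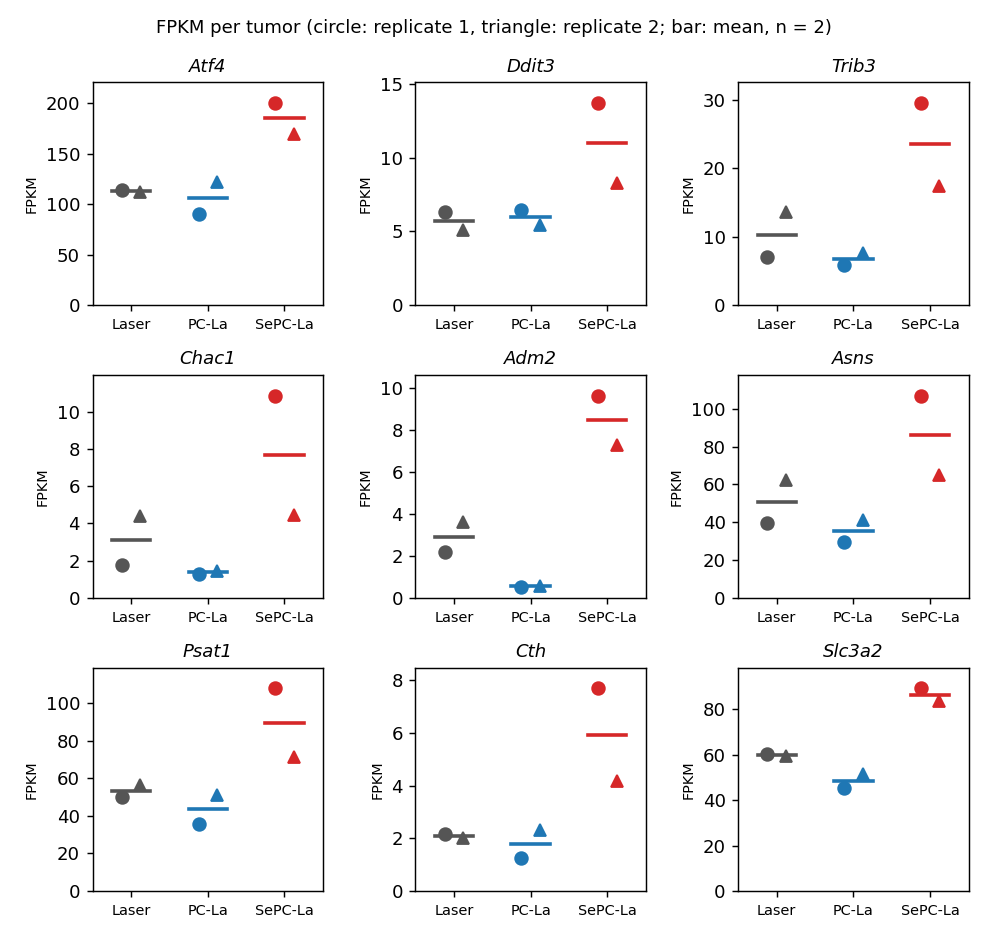
FPKM of 9 genes in each tumor, with circles for replicate 1, triangles for replicate 2 and a bar at the mean of each group (n = 2). Atf4 reached 170 and 200.5 FPKM in SePC-La against 90.2 to 122 FPKM in the other 4 samples, and Adm2 fell to 0.542 and 0.566 FPKM in PC-La.

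A smaller set of regulators did not follow this order. Atf5, a factor linked to the mitochondrial stress response, stood at 17.1 and 7.51 FPKM in Laser, 21.03 and 20.8 FPKM in PC-La, and 17.4 and 14.5 FPKM in SePC-La. Nupr1, a small chromatin protein induced by stress, stood at 18.9 and 10.98 FPKM in Laser, 21.8 and 24.9 FPKM in PC-La, and 19.1 and 17.9 FPKM in SePC-La. Both genes were highest in PC-La and lowest in Laser replicate 2. PC-La exceeded Laser by 0.65 ± 0.24 for Nupr1 (adjusted p = 0.753), and by 0.29 without Laser replicate 2. For Atf5 the same difference was 0.82 ± 0.34 (adjusted p = 0.753), and leaving out Laser replicate 2 gave 0.27, while leaving out Laser replicate 1 gave 1.37.

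The C/EBP partners also stood apart from the rest. Cebpg, which pairs with ATF4, was between 13.1 and 15.7 FPKM in all 6 samples (Laser 14.5 and 13.4, PC-La 15.7 and 14.6, SePC-La 14.9 and 13.1 FPKM), and its interval for SePC-La against Laser ran from -0.31 to 0.31. Cebpb stood at 15.7 and 27.1 FPKM in Laser, 17.0 and 23.4 FPKM in PC-La, and 18.9 and 60.9 FPKM in SePC-La. The high value came from SePC-La replicate 2 alone, and no comparison of Cebpb had a p under 0.05. Of the Cebpb exons, 20.7% overlap those of Tmem189 on the other strand, and no source states that counting used the strand. Stc2, a secreted glycoprotein, and the lipoprotein receptor Vldlr were under the filter. Stc2 was at 0 to 0.174 FPKM, where 0 in Laser replicate 1 allows up to 0.0369 FPKM (3 reads), and Vldlr at 0.248 to 0.577 FPKM. Without the filter neither had a p under 0.05.

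The enzymes of amino acid and one-carbon synthesis had summed levels of 358 and 466 FPKM in Laser, 269 and 344 FPKM in PC-La, and 778 and 539 FPKM in SePC-La. All 11 tested enzymes had a positive difference of SePC-La to both other groups. PC-La replicate 2 was above PC-La replicate 1 in all 11 as well, so that the samples of PC-La differed in the same direction over the whole set.

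In the serine pathway, which starts from a glycolytic intermediate, the entry enzyme Phgdh stood at 90.1 and 134 FPKM in Laser, 74.5 and 88.1 FPKM in PC-La, and 183 and 164 FPKM in SePC-La. SePC-La exceeded PC-La by 1.09 ± 0.21 (adjusted p = 0.126) and Laser by 0.65 ± 0.21 (adjusted p = 0.378). Psat1, the aminotransferase of the next step, stood at 50.2 and 56.3 FPKM in Laser, 35.5 and 51.3 FPKM in PC-La, and 108 and 71.3 FPKM in SePC-La, with differences of 1.02 ± 0.25 to PC-La (adjusted p = 0.126) and 0.71 ± 0.25 to Laser (adjusted p = 0.385). The last enzyme, the phosphatase Psph, had the lowest level of the 3, at 3.91 and 7.997 FPKM in Laser, 3.84 and 4.09 FPKM in PC-La, and 10.7 and 6.56 FPKM in SePC-La. Laser replicate 2 lay between the SePC-La samples for Psph, and only the difference to PC-La passed (0.92 ± 0.33, adjusted p = 0.178). Of the Psph exons, 10.4% overlap those of Cct6a on the other strand.

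Serine feeds the one-carbon cycle of mitochondria, and the 3 enzymes of it described here were also higher in SePC-La than in PC-La. Shmt2, which splits serine into glycine and a one-carbon unit, stood at 74.9 and 89.5 FPKM in Laser, 49.6 and 65.6 FPKM in PC-La, and 167 and 106 FPKM in SePC-La. The groups did not overlap, and SePC-La exceeded PC-La by 1.21 ± 0.25 (adjusted p = 0.126) and Laser by 0.69 ± 0.25 (adjusted p = 0.385). Mthfd2, the folate dehydrogenase of the cycle, stood at 23.4 and 24.3 FPKM in Laser, 16.1 and 24.9 FPKM in PC-La, and 57.6 and 34.1 FPKM in SePC-La, with differences of 1.11 ± 0.30 to PC-La (adjusted p = 0.134) and 0.87 ± 0.30 to Laser (adjusted p = 0.384). Mthfd1l, which releases formate, stood at 36.5 and 48.1 FPKM in Laser, 25.5 and 25.6 FPKM in PC-La, and 66.7 and 45.8 FPKM in SePC-La. For Mthfd1l the PC-La tumors were below all others, with a difference to Laser of -0.69 ± 0.21 (adjusted p = 0.753) and with SePC-La higher than PC-La by 1.08 ± 0.21 (adjusted p = 0.126), while Laser and SePC-La overlapped (0.39 ± 0.21, adjusted p = 0.49).

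Asns makes asparagine from aspartate and glutamine and carries the composite element printed above. It stood at 39.5 and 62.3 FPKM in Laser, 29.6 and 41.0 FPKM in PC-La, and 107 and 65.1 FPKM in SePC-La. SePC-La replicate 2 was only just above Laser replicate 2. The difference was 1.24 ± 0.32 to PC-La (adjusted p = 0.134) and 0.74 ± 0.32 to Laser, which missed the threshold (adjusted p = 0.425).

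Cth, which makes cysteine from cystathionine, stood at 2.17 and 1.99 FPKM in Laser, 1.26 and 2.32 FPKM in PC-La, and 7.69 and 4.19 FPKM in SePC-La. Its SePC-La mean was 2.86 times the Laser mean and 3.31 times the PC-La mean, with differences of 1.13 ± 0.29 (adjusted p = 0.376) and 1.29 ± 0.29 (adjusted p = 0.126). Cbs, which makes the cystathionine, was at 0 to 0.0462 FPKM and was not tested. Its 0 in Laser replicate 1 allows up to 0.0255 FPKM. Gpt2, the mitochondrial alanine aminotransferase, stood at 4.92 and 5.25 FPKM in Laser, 3.69 and 4.63 FPKM in PC-La, and 11.1 and 7.48 FPKM in SePC-La. The 3 groups did not overlap for Gpt2, and the differences of SePC-La were 0.74 ± 0.20 to Laser (adjusted p = 0.376) and 0.98 ± 0.20 to PC-La (adjusted p = 0.126).

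Both enzymes of the proline branch missed the threshold in all 3 comparisons. Aldh18a1, the first enzyme of proline synthesis, lay between 26.4 and 34.3 FPKM in 5 samples and at 55.1 FPKM in SePC-La replicate 1. Pycr1, the last enzyme, stood at 2.34 and 2.03 FPKM in Laser, 2.55 and 2.85 FPKM in PC-La, and 3.85 and 2.01 FPKM in SePC-La. SePC-La replicate 2 held the lowest Pycr1 value and SePC-La replicate 1 the highest, and the difference of SePC-La to PC-La was 0.05 ± 0.24 (adjusted p = 0.916, 95% interval -0.54 to 0.63).

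The 6 transporters tested were all lower in PC-La than in Laser by the fitted value, from -0.50 to -0.29, and 2 of the 6 passed. Slc3a2, the glycoprotein chain shared by several amino acid exchangers, stood at 60.2 and 59.5 FPKM in Laser, 45.5 and 51.3 FPKM in PC-La, and 89.3 and 83.6 FPKM in SePC-La. Its groups did not overlap and its replicates were close. SePC-La exceeded Laser by 0.52 ± 0.12 (adjusted p = 0.376) and PC-La by 0.83 ± 0.12 (adjusted p = 0.0999), and PC-La was lower than Laser (-0.30 ± 0.12, adjusted p = 0.753).

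Slc7a5, the light chain that pairs with Slc3a2 to import leucine and other large neutral amino acids, stood at 51.3 and 54.9 FPKM in Laser, 34.3 and 42.8 FPKM in PC-La, and 76.4 and 58.7 FPKM in SePC-La. PC-La was lower than Laser (-0.46 ± 0.18, adjusted p = 0.753), SePC-La exceeded PC-La by 0.79 ± 0.18 (adjusted p = 0.126), and SePC-La against Laser missed the threshold (0.33 ± 0.18, adjusted p = 0.479). Slc7a1, the importer of arginine and lysine, stood at 10.1 and 12.02 FPKM in Laser, 6.27 and 8.97 FPKM in PC-La, and 15.4 and 10.4 FPKM in SePC-La. Slc7a1 was higher in SePC-La than in PC-La by 0.68 ± 0.23 (adjusted p = 0.164), with SePC-La replicate 2 within the range of Laser.

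The glutamine transporter Slc1a5 stood at 33.2 and 42.0 FPKM in Laser, 25.4 and 36.1 FPKM in PC-La, and 58.1 and 42.8 FPKM in SePC-La. The related serine and alanine transporter Slc1a4 stood at 15.1 and 19.8 FPKM in Laser, 13.1 and 12.9 FPKM in PC-La, and 20.4 and 16.7 FPKM in SePC-La. Both were higher in SePC-La than in PC-La, Slc1a5 by 0.70 ± 0.23 (adjusted p = 0.158) and Slc1a4 by 0.48 ± 0.17 (adjusted p = 0.171), and neither passed against Laser. The glycine transporter Slc6a9 was the transporter tested with a negative difference of SePC-La to Laser. It stood at 4.48 and 4.07 FPKM in Laser, 3.09 and 2.99 FPKM in PC-La, and 4.17 and 2.94 FPKM in SePC-La, and the difference of -0.22 ± 0.17 missed the threshold (adjusted p = 0.605). Of its exons, 27.8% overlap those of Ccdc24 on the other strand.

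Slc7a3, another importer of cationic amino acids, was just under the filter, at 1.04 and 1.06 FPKM in Laser, 0.710 and 0.936 FPKM in PC-La, and 0.512 and 0.636 FPKM in SePC-La (28 to 71 reads). It was the only gene of the 34 that was lower in SePC-La than in Laser at an unadjusted p under 0.05, and this in the fit without the filter (-0.38 ± 0.14, adjusted p = 0.506). Its paralog Slc7a1 had 15.4 and 10.4 FPKM in the same tumors.

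Between SePC-La and PC-La, the median difference was 0.53 for the 7 tested genes with the element, of which 5 were higher at an unadjusted p under 0.05, and 0.83 for the 19 tested genes with a window but no match, of which 14 were higher. For SePC-La against Laser the medians were in the other order, 0.74 with the element and 0.63 without. In that comparison 2 of the 7 and 11 of the 19 genes were higher (4.9% of all genes tested). For PC-La against Laser the medians were -0.38 with the element and -0.3 without. These medians and counts are a description and were not tested. Adm2, with the largest difference of the 30 genes, was among the genes with a window but no match.

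Other genes of the pathway were described from lists of further members. Over all genes tested, 9.91% were higher and 14.4% lower in SePC-La than in PC-La at an unadjusted p under 0.05. Against Laser, these shares were 4.9% and 7.24% for SePC-La and 3.38% and 2.4% for PC-La. Cytosolic aminoacyl-tRNA synthetases, which charge tRNAs and are known ATF4 targets, were higher in SePC-La than in PC-La in 11 of 20 at an unadjusted p under 0.05 and lower in 0, with a median of 0.47. Against Laser 3 of 20 were higher and 0 lower (median 0.34), and PC-La against Laser gave 0 in either direction (median -0.08). Sars stood at 32.1 and 35.9 FPKM in Laser, 28.5 and 31.6 FPKM in PC-La, and 64.0 and 41.6 FPKM in SePC-La, with differences of 0.76 ± 0.21 to PC-La (adjusted p = 0.134) and 0.59 ± 0.21 to Laser (adjusted p = 0.385). Cars showed 0.66 ± 0.21 to PC-La (adjusted p = 0.151) and 0.63 ± 0.21 to Laser (adjusted p = 0.382). For Vars and Tars only the difference to PC-La passed, at 0.63 ± 0.20 (adjusted p = 0.148) and 0.62 ± 0.19 (adjusted p = 0.15).

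The kinases and translation factors upstream of ATF4 showed no common direction. In SePC-La, 4 of 17 were higher (9.91% of all genes tested) and 2 of 17 lower (14.4%) than in PC-La. Against Laser, 2 were higher (4.9%) and 2 lower (7.24%), and PC-La against Laser gave 0 in either direction. Eif2ak3, the kinase PERK of the endoplasmic reticulum, stood at 6.23 and 5.68 FPKM in Laser, 6.83 and 7.06 FPKM in PC-La, and 3.40 and 4.61 FPKM in SePC-La. It was lower in SePC-La than in Laser (-0.48 ± 0.16, adjusted p = 0.382) and than in PC-La (-0.68 ± 0.16, adjusted p = 0.126). Impact, an inhibitor of the amino acid sensing kinase GCN2, was also lower than in Laser (-0.51 ± 0.15, adjusted p = 0.376). The eIF2B subunits Eif2b5 and Eif2b2 were higher in SePC-La than in Laser, by 0.37 ± 0.13 (adjusted p = 0.382) and 0.47 ± 0.11 (adjusted p = 0.376).

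Of 13 other ATF4 targets 10 were tested. In SePC-La, 3 of these were higher (9.91% of all genes tested) and 0 lower (14.4%) than in PC-La. Against Laser, 2 were higher (4.9%) and 1 lower (7.24%). PC-La against Laser gave 0 higher (3.38%) and 2 lower (2.4%). Nfil3, a transcription factor, stood at 20.8 and 15.1 FPKM in Laser, 14.3 and 14.3 FPKM in PC-La, and 34.1 and 33.0 FPKM in SePC-La. Its differences were 1.18 ± 0.16 to PC-La (adjusted p = 0.0977) and 0.89 ± 0.16 to Laser (adjusted p = 0.376). Ddit4, an inhibitor of mTORC1 that low oxygen also induces, was higher by 0.76 ± 0.16 against PC-La (adjusted p = 0.126) and 0.66 ± 0.16 against Laser (adjusted p = 0.376). Jdp2 was higher in SePC-La than in PC-La by 0.75 ± 0.18 (adjusted p = 0.126), and the taurine transporter Slc6a6 was lower than in Laser in both SePC-La (-0.49 ± 0.20, adjusted p = 0.411) and PC-La (-0.51 ± 0.20, adjusted p = 0.753).

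**Figure D4:**
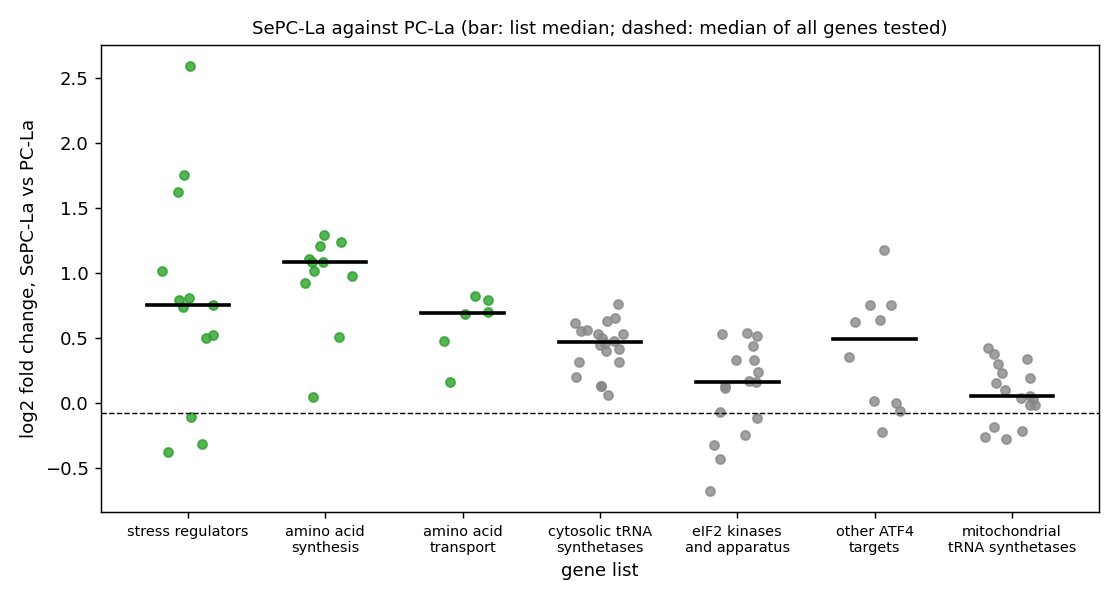
Log2 fold change of FPKM + 1 between SePC-La and PC-La for each tested gene of 7 lists (points, spread sideways at random), with a bar at the median of each list and a dashed line at the median of all genes tested (-0.07). The medians were 1.08 for synthesis, 0.75 for regulators, 0.69 for transport and 0.47 for cytosolic tRNA synthetases.

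The 8 hypoxia genes summed to 296 and 218 FPKM in Laser, 224 and 191 FPKM in PC-La, and 581 and 467 FPKM in SePC-La. At an unadjusted p under 0.05, all 8 were higher in SePC-La than in PC-La (9.91% of all genes tested). Of these 8, 7 were also higher than in Laser (4.9%). Of the 10 neutrophil markers 7 were tested. Of these, 3 were higher in SePC-La than in PC-La (9.91% of all genes tested) and 3 than in Laser (4.9%). The 10 summed to 165 and 42.4 FPKM in Laser, 158 and 92.8 FPKM in PC-La, and 344 and 468 FPKM in SePC-La. All 5 erythroid markers were higher in SePC-La than in Laser (4.9% of all genes tested) and 1 was higher than in PC-La (9.91%). In PC-La, too, 3 of 5 were higher than in Laser (3.38%). In that comparison 23 of the 30 ATF4 response genes had differences below 0. The erythroid markers summed to 127 and 13.6 FPKM in Laser, 263 and 361 FPKM in PC-La, and 613 and 932 FPKM in SePC-La. The neutrophil and erythroid sums were higher in SePC-La replicate 2 than in replicate 1, and the summed ATF4 response genes were higher in replicate 1. These are values of single samples, and the part of either cell type in the results was not tested.

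The 6 fibroblast markers, of which 0 passed in any comparison at an unadjusted p under 0.05, had sums of 1239 and 283 FPKM in Laser, 1714 and 1562 FPKM in PC-La, and 117 and 631 FPKM in SePC-La. The tumor with the lowest fibroblast sum and the highest synthesis sum was SePC-La replicate 1, and the tumor with the highest fibroblast sum and the lowest synthesis sum was PC-La replicate 1. Most of the sum came from Col3a1, Lum and Dcn, whereas the collagen genes Col1a1 (23.2 FPKM) and Col1a2 (10.1 FPKM) were highest in SePC-La replicate 2. Within Laser and within PC-La, too, the replicate with less fibroblast signal had more of the synthesis enzymes. This order is a description of the 6 samples, and a link between the sums was not tested. The 8 macrophage markers summed to 701 and 745 FPKM in Laser, 926 and 977 FPKM in PC-La, and 452 and 792 FPKM in SePC-La. At an unadjusted p under 0.05, 4 of the 8 were lower (14.4% of all genes tested) and 1 higher (9.91%) in SePC-La than in PC-La. Against Laser, 1 was higher in SePC-La (4.9%) and 1 lower in PC-La (2.4%). The 5 proliferation genes stayed between 175 and 215 FPKM in all 6 samples. Sums of 5 endothelial markers (21.4 to 37.6 FPKM), 5 T cell markers (2.53 to 8.37 FPKM) and 4 adipocyte markers (1.63 to 53.1 FPKM) were low. Of the endothelial markers 4 were tested, and 2 of these were higher in SePC-La than in Laser at an unadjusted p under 0.05 (4.9% of all genes tested). The part of any of these cell types or of hypoxia in the results was not tested.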

How the data were processed

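RNA of 6 tumor samples was sequenced, 2 each of Laser, PC-La and SePC-La, grouped by the treatment label. The authors deposited 1 table of FPKM values, and every sample column was used. The submitters' processing notes list HISAT2 2.0.5, HTSeq 0.9.1 and DESeq 1.30.0 and the build mm9. The FPKM values, multiplied by merged exon lengths of GENCODE M21 (GRCm38), gave whole reads (within 0.02) in all 6 samples for 97.8% of expressed genes, so gene coordinates are given in GRCm38 by Ensembl identifier.

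Genes averaging 1 FPKM or more over all samples (10853) were tested by limma 3.58.1, run under R 4.3.3, after a log2(FPKM + 1) transform, with a mean per group, trend and robust moderation (6.4 degrees of freedom for the median gene, 3.4 of them prior) and Benjamini-Hochberg adjustment over all genes tested. The p-values are two-sided. The step was tested on simulated data. The members, the gene lists and the tests were chosen with earlier results of these data known. By rule, members with an unadjusted p under 0.05 in a comparison and the extremes of each role are given in every sample, and at most 4 genes per other list, those with the smallest p. Alternatives covered the pseudocount, filter, scaling, moderation, samples in the fit, a replicate block, recovered reads and each replicate left out. Intervals of a 0 cover counting error only. Whether counting used the strand is not given in the sources used here.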

Additional observations from a re-analysis of the deposited data

How the results depend on the processing

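Of 15 genes higher in SePC-La than in Laser 7, of 6 changed between PC-La and Laser 1, and of 23 higher in SePC-La than in PC-La 15 stayed under an unadjusted p of 0.05 in every alternative that tested them, and no called gene turned its direction. The cause of the following changes was not tested, apart from filters, which change the genes tested. For SePC-La against Laser, 1 gene was lower with no filter (5.82% of all genes tested), and 1 met the study's criterion at a minimum mean of 5 FPKM. For PC-La against Laser, higher genes numbered 2 without robust estimation (3.57% of all genes tested), 2 on recovered reads (3.88%) and 0 with only the 4 samples compared (3.71%). At a minimum mean of 5 FPKM 0 genes met the criterion as lower, and the regulator median of -0.05 turned to 0.03, as it did with no filter. For SePC-La against PC-La, 2 were lower with only the 4 samples compared (20.3% of all genes tested).

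With 1 sample left out, its group's other sample is assumed to vary like the other groups. The genes higher in SePC-La than in Laser then ranged from 8 to 20, those past the criterion from 2 to 9 and the medians from 0.39 to 0.99 for synthesis and from 0.05 to 0.48 for transport. For PC-La against Laser, the synthesis median ranged from -0.54 to -0.11 and the regulator median from -0.21 to 0.01. For SePC-La against PC-La, higher genes ranged from 16 to 23, lower genes from 0 to 2, those past the criterion from 5 to 14, the synthesis median from 0.74 to 1.32 and the transport median from 0.45 to 0.91.

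Replicate numbers are shared by the groups. Deviations of same-numbered samples correlated at 0.09 (Laser and PC-La), -0.43 (Laser and SePC-La) and -0.18 (PC-La and SePC-La). They gave no sign that the numbers pair the samples, which 2 samples a group cannot exclude. With the replicate block, 13 genes were higher in SePC-La than in Laser (3.61% of all genes tested) and 21 than in PC-La (7.87%). In PC-La against Laser, 2 were higher (2.39%) and 3 lower (1.78%).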

Other observations

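Lists chosen after the data were examined were added to place the synthesis enzymes beside their neighbors. Over all genes tested, 9.91% were higher and 14.4% lower in SePC-La than in PC-La, and 4.9% were higher than in Laser. Of 17 mitochondrial aminoacyl-tRNA synthetases, 3 were higher and 0 lower in SePC-La than in PC-La at an unadjusted p under 0.05 in limma (Tars2 by 0.43 ± 0.17, adjusted p = 0.191, Yars2 by 0.30 ± 0.12, adjusted p = 0.196, and Aars2 by 0.34 ± 0.14, adjusted p = 0.204), with a median of 0.06, against 11 of 20 and a median of 0.47 for the cytosolic synthetases. Against Laser 1 of the 17 was higher and 0 were lower (Yars2, 0.33 ± 0.12, adjusted p = 0.386), with a median of -0.05, and PC-La against Laser gave 0 in either direction, with a median of -0.07.

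Of 9 cytosolic enzymes of one-carbon and nucleotide synthesis, 3 were higher in SePC-La than in PC-La (9.91% of all genes tested). In the same comparison 0 were lower (14.4%), and the median was 0.38. The 3 higher enzymes were Mthfd1 (0.67 ± 0.19, adjusted p = 0.137), Gart (0.48 ± 0.19, adjusted p = 0.202) and Atic (0.33 ± 0.14, adjusted p = 0.206). The mitochondrial enzymes Shmt2, Mthfd2 and Mthfd1l had 1.21, 1.11 and 1.08 in the same comparison. Against Laser none of the 9 passed (median 0.15), nor did any in PC-La against Laser (median -0.22). The difference between the lists was not tested.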
